A study of Homo sapiens with 12 samples.

Results

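The resting expression profile of 231BR breast cancer cells was read from 3 arrays, those of cells given vehicle and cultured without astrocytes, out of 12 arrays in all. 231BR is a brain-seeking derivative of MDA-MB-231, a human triple-negative breast cancer line of mesenchymal type. The study gave EGFP-carrying 231BR cells 10 nM estradiol or its vehicle, alone or in co-culture with mouse astrocytes for 24 h, and sorted the tumour cells before RNA was extracted. The 4 groups of 3 arrays were therefore estradiol with astrocytes, vehicle with astrocytes, estradiol alone and vehicle alone. All 4 groups are the same derivative of the same line. The labels do not say whether the arrays of a group came from separate cultures, so spreads and p-values cover the differences between these arrays and may be technical. The level of a gene was the mean log2 signal over the 3 vehicle alone arrays of its probe set, the group of array probes that measures it. Probe sets with exactly 1 gene symbol were used, and for a gene with several, the one with the highest mean, which gave 17958 genes ranked by level.

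A tumour cell line carries a record of its lineage in what it transcribes. Epithelial breast cells express keratins, E-cadherin and, in the luminal type, the estrogen receptor with its pioneer factor FOXA1, whereas mesenchymal breast cancer lines express vimentin, CD44, EGFR and AXL. Estradiol acts through the nuclear receptors encoded by ESR1 and ESR2 and through the membrane receptor encoded by GPER1.

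An array probe gives some signal with no target, so each gene was set against genes that a breast cell is not known to express. The 335 olfactory receptor genes, used by smell neurons, had a median log2 signal of 2.81, and the 95th percentile of their values was 3.64, 3.79 and 4.17 on vehicle alone replicates 1, 2 and 3. A gene was called above background where it exceeded this cutoff on all 3 arrays, not above background where it did so on none, and mixed otherwise. By that rule 11996 genes (66.8%) were above background, 1520 were mixed and 4442 (24.7%) were not above background. A second, stricter cutoff came from 114 taste receptor, beta-defensin and keratin-associated protein genes, whose 95th percentile was 5.17, 5.27 and 6.10, and 5504 genes (30.6%) exceeded it on all 3 arrays. The olfactory receptor cutoff appeared lenient, if those 114 genes are silent, since 34 of them exceeded it on all 3 arrays. So did 6 of 20 markers of other tissues, such as the eye lens gene CRYAA (5.14 on average) and the sperm gene PRM1 (4.24). Of the 20 tissue markers 1 exceeded the second cutoff on all arrays, ACTA1, the skeletal muscle actin gene, at 5.76, 5.70 and 6.28. Both counts are therefore given for most groups of genes below, and are read against these shares of all genes. No groups of samples are compared in the levels, so they are descriptions with no test. Different probe sets bind with different strength, with a median difference of 0.68 between the pair of probe sets of each of 689 genes, so wide gaps are read between genes and no order is claimed between neighbours. In pooled RNA a transcript made in few cells cannot be told apart from one made at a low level in all.

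**Figure D1:**
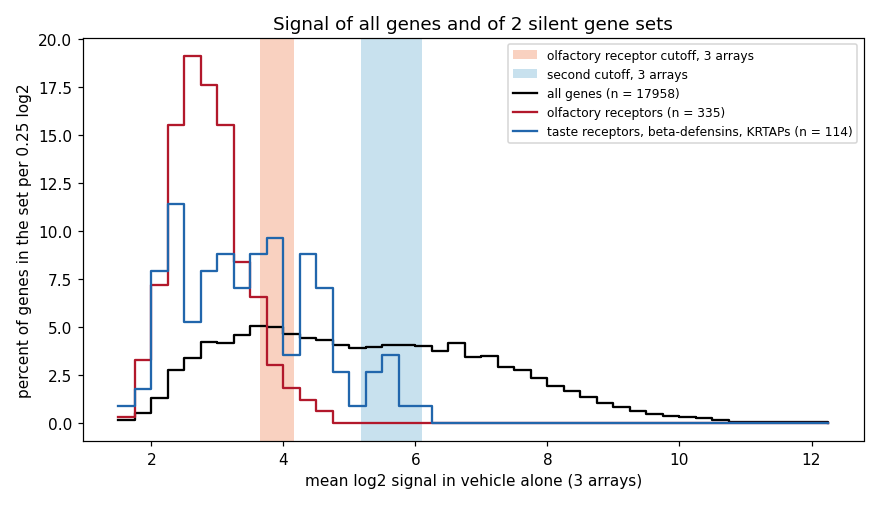
Distribution of the mean log2 signal in vehicle alone (x axis) as the percent of genes per 0.25 log2 units (y axis). Lines show all 17958 genes, the 335 olfactory receptor genes and the 114 genes of the second set, both sets taken as silent. The shaded bands span the cutoffs of the 3 arrays, 3.64 to 4.17 for olfactory receptors and 5.17 to 6.10 for the second set. The olfactory receptor genes sit around 2.81, below most genes, while the second set reaches into the range of moderately expressed genes.

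The 3 vehicle alone arrays were not alike. Across genes replicate 1 correlated with replicate 2 at r = 0.995, and replicate 3 correlated with them at r = 0.967 and 0.979. Replicate 3 had the narrowest range, with an SD over genes of 1.77 against 2.02 and 1.96 in replicates 1 and 2. It gave the lowest of the 3 values in 61.4% of genes above background and the highest in 80.6% of genes not above background. Without it 12751 genes were above background, and no list described below changed its count by more than 1.5 times. The median SD of a gene over the 3 arrays was 0.21, and 95% of genes had an SD of at most 0.56. The 10 most variable genes above background had SDs between 1.03 and 1.39, and 9 of them were lowest in replicate 3. Among them were COX7B, a subunit gene of the respiratory chain, at 7.22, 6.91 and 4.98, and CDC42, a GTPase gene of the cytoskeleton, at 7.53, 7.14 and 5.31. The exception was SNORD116-2, a small nucleolar RNA gene, at 4.58, 5.54 and 6.95.

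The highest signals came from genes of protein synthesis, the cytoskeleton and glycolysis. The 20 highest genes, leaving out small RNAs and open reading frame names, ranged from 10.88 (ANXA1, the annexin A1 gene) to 11.77 (PTMA, the prothymosin gene). They held 6 ribosomal protein genes (RPS28, RPL41, RPL8, RPL18, RPL10 and RPL5), the actin genes ACTB and ACTG1, the tubulin genes TUBB4B and TUBB, and TMSB10, which encodes an actin-binding thymosin. They also held the glycolytic genes GAPDH, ENO1 and LDHA, the metallothionein gene MT2A, the linker histone gene H1-4, the elongation factor gene EEF1A1 and the chaperone gene HSPA8. Of 69 cytosolic ribosomal protein genes 54 were in the top 10% of all genes, at 7.89 or more. Several of these families, and KRT18 below, have near-identical copies and processed pseudogenes in the genome whose RNA the same probes could bind, so the single gene behind such a signal is uncertain.

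Genes above background and not above it differed in the bases at their start. CpG-rich promoters are those of most housekeeping genes, whereas many tissue-specific genes have promoters poor in CpG, and some of these carry a TATA box. RefSeq promoters (GRCh38.p14, 250 bases before to 50 after the annotated start) were matched to 13484 of 16557 protein-coding genes. Promoters with 15 or more CpG made up 81.4% of the 9462 matched genes above background and 31.8% of the 3000 not above background. Among all 13484 matched genes the share was 68.3%. Leaving out olfactory receptor genes, the share among genes not above background was 34.7%. GGGCGG, the GC box, which itself holds a CpG, was found on either strand in 70.6% of promoters above background and 32.7% of those not above. Among all matched genes the GC box share was 60.6%. TATAAA was found in 6.21% of promoters above background, 17.2% of those not above and 8.95% of all matched, and CCAAT in 36.1%, 37.9% and 36.5%. The share with 15 or more CpG was 88.7% among the 10% of genes with the highest level and 26.1% among the 10% with the lowest. These shares are descriptions, with no test, and the base content of the probes was not examined.

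**Figure D2:**
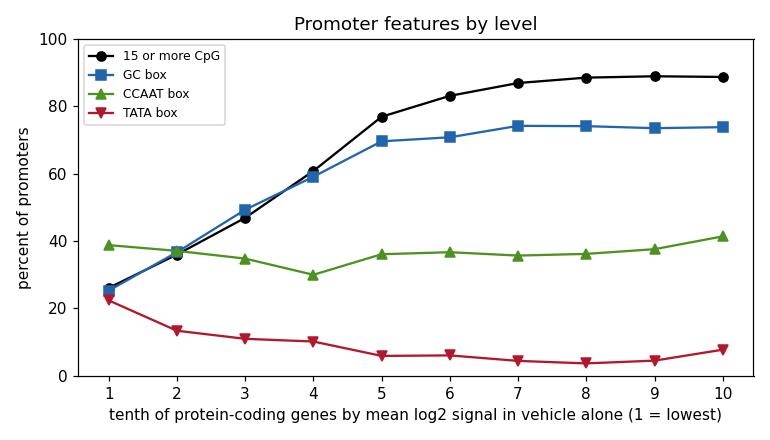
Percent of promoters (y axis) with 15 or more CpG, a GC box, a CCAAT box or a TATA box in each of 10 equal bins of matched protein-coding genes by mean log2 signal in vehicle alone (x axis, 1 is lowest). The CpG line runs between 26.1% in bin 1 and 88.7% in bin 10 and is nearly level over bins 7 to 10, the TATA line is highest in bin 1 at 22.4%, and the CCAAT line stays between 30.0% and 41.4%.

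The 250 bases before the RefSeq start of 3 genes show the range, 2 above background and 1 not above it, with every CG in capitals. EGFR (chr7:55018767-55019016, + strand) has 25 CpG and a GC content of 73.6%, VIM (chr10:17227991-17228240, + strand) has 8 CpG and 46.0%, and ESR1 (chr6:151656422-151656671, + strand) has 3 CpG and 36.0%.
EGFR: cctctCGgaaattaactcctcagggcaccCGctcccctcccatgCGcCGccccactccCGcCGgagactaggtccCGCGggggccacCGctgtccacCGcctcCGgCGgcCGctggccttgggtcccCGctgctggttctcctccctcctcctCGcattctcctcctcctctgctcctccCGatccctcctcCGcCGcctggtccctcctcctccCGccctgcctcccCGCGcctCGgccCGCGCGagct
VIM: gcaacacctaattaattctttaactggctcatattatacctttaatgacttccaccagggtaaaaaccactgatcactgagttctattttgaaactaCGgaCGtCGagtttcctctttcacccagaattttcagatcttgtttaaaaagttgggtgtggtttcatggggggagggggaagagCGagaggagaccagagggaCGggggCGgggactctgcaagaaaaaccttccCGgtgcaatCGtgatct
ESR1: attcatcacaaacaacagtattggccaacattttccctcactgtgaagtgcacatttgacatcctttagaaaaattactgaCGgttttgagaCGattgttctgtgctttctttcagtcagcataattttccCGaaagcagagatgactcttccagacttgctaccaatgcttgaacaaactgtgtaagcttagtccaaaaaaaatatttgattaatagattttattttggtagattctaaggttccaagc
EGFR averaged 9.06 ± 0.24 (SD, n = 3) on the log2 scale, VIM 10.68 ± 0.18 (SD, n = 3) and ESR1 3.61 ± 0.29 (SD, n = 3). The EGFR window holds 2 GC boxes, the VIM window 1 and the ESR1 window none, and ESR1 alone of these holds CCAAT, at 2 places. VIM lies far up the ranking with few CpG in this window, so the shares over all genes do not hold for every such window. Bases further from the listed start were not counted, so this does not show that VIM is poor in CpG nearby. ESR1 is known to have several promoters, and the window stands before the single start that the RefSeq table lists.

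Of the receptor genes for estradiol, ESR1 was not above background, ESR2 was mixed and GPER1 was above background. ESR1 (probe set 8122843, chromosome 6), the gene of estrogen receptor alpha, gave 3.32, 3.62 and 3.90, below the olfactory receptor cutoff on every array. ESR2, which encodes estrogen receptor beta, gave 3.99, 3.62 and 3.38 and passed the cutoff on replicate 1 only. GPER1 (probe set 8131069, chromosome 7), the membrane estrogen receptor gene, gave 5.79, 5.72 and 5.67, above the olfactory receptor cutoff on 3 arrays and above the second cutoff on 2. GPER1 ranked 7202 of 17958. PGR, the progesterone receptor gene and a classic target of estrogen receptor alpha, gave 2.50, 2.66 and 3.00 and was not above background. The steroid receptor gene with the highest signal was NR3C1, which encodes the glucocorticoid receptor, at 7.75, 7.69 and 7.06. NR3C2, the mineralocorticoid receptor gene, gave 5.18, 4.90 and 4.74. Of the 6 steroid receptor genes measured, 3 were above background and 1 (NR3C1) above the second cutoff, against 66.8% and 30.6% of all genes.

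The other nuclear receptors were led by PPARG, the lipid sensor and adipocyte regulator, at 8.61, 8.36 and 7.81. The retinoid X receptor genes RXRB (6.98 on average) and RXRA (6.84), the partners of many nuclear receptors, were above both cutoffs. RXRG (2.98), RORA (2.81) and ESRRG (2.45), an estrogen-related receptor gene, were not above background. In all 16 of 24 measured genes were above background and 8 above the second cutoff, close to the shares of all genes.

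Of 14 enzyme genes that make and clear estradiol 7 were above background and 2 above the second cutoff, against 66.8% and 30.6% of all genes. CYP19A1, which encodes aromatase, the enzyme that forms estrogens, gave 2.64, 2.70 and 2.77. SULT1E1, the estrogen sulfotransferase gene, gave 2.37, 2.34 and 2.46, and UGT2B7, a glucuronidation gene, averaged 2.71. CYP17A1 (3.11), HSD3B1 (3.15) and HSD3B2 (3.17), which act early in steroid synthesis, were not above background either. The highest were HSD17B12 (8.50, 8.09 and 7.28) and HSD17B4 (7.62, 7.40 and 6.90), which encode 17-beta-hydroxysteroid dehydrogenases that also serve fatty acid metabolism. STS, the steroid sulfatase gene, gave 5.77, 5.57 and 4.84, with replicate 3 lowest.

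Among receptor tyrosine kinases, the cell surface receptors for growth factors, a few genes stood far above the rest. AXL, the receptor gene for GAS6, gave 9.79, 9.79 and 9.65. EPHA2, an ephrin receptor gene, gave 9.37, 9.25 and 9.08, and EGFR (probe set 8132860, chromosome 7) gave 9.24, 9.15 and 8.79. MET, which encodes the hepatocyte growth factor receptor, gave 8.68, 8.59 and 8.11. These 4 genes were in the top 10% by mean level, and RYK (7.82) and IGF1R (7.73), the insulin-like growth factor receptor gene, followed. The other members of the EGFR family were not in the top 25%. ERBB2, the HER2 gene, gave 5.81, 5.68 and 5.58 and passed the second cutoff on 2 arrays. ERBB3 gave 3.87, 3.85 and 3.85, which exceeded the cutoff on replicates 1 and 2 only, and ERBB4 gave 3.48, 3.37 and 3.72 and was not above background.

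Above background were 66.8% of all genes, and 30.6% were above the second cutoff. Of the 39 receptor tyrosine kinase genes measured, 22 were above background, 7 were mixed and 10 were not above background, and 11 exceeded the second cutoff. Their median was 4.20, below the 5.10 of all genes, so the list held a few very high genes and many near background. The lowest were FLT3 (2.59), a blood progenitor receptor gene, ROS1 (2.88), FLT1 (2.97), a receptor gene for VEGF, PDGFRA (3.05), FGFR2 (3.31) and KIT (3.33). The mixed genes DDR2, NTRK2, ALK, CSF1R, KDR and ROR2 averaged between 3.68 and 4.17.

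Of 23 growth factor genes 16 were above background, near the 66.8% of all genes, and 11 were above the second cutoff, against 30.6% of all genes. Their median was 6.55, against 5.10 for all genes. The EGFR ligand genes HBEGF (9.62, 9.62 and 9.46) and EREG (9.25, 9.17 and 8.75) were in the top 10%, as was their receptor gene. CCN1 (9.80 on average) and CCN2 (8.92) encode matricellular proteins and are known targets of YAP. VEGFA, the angiogenic factor gene, gave 8.80, 8.68 and 8.55, and FGF5 averaged 8.09. EGF itself (3.37, 3.29 and 3.41) and BTC (3.05), another EGFR ligand gene, were not above background. The genes of the ligands of MET and IGF1R, HGF (2.47, 2.63 and 2.70) and IGF1 (3.05, 3.08 and 3.59), were not above background while those of their receptors were. FGF7 (2.48) and its receptor gene FGFR2 were both not above background. GAS6, named here after its values were seen as the ligand gene of AXL, gave 6.93, 6.98 and 6.66.

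**Figure D3:**
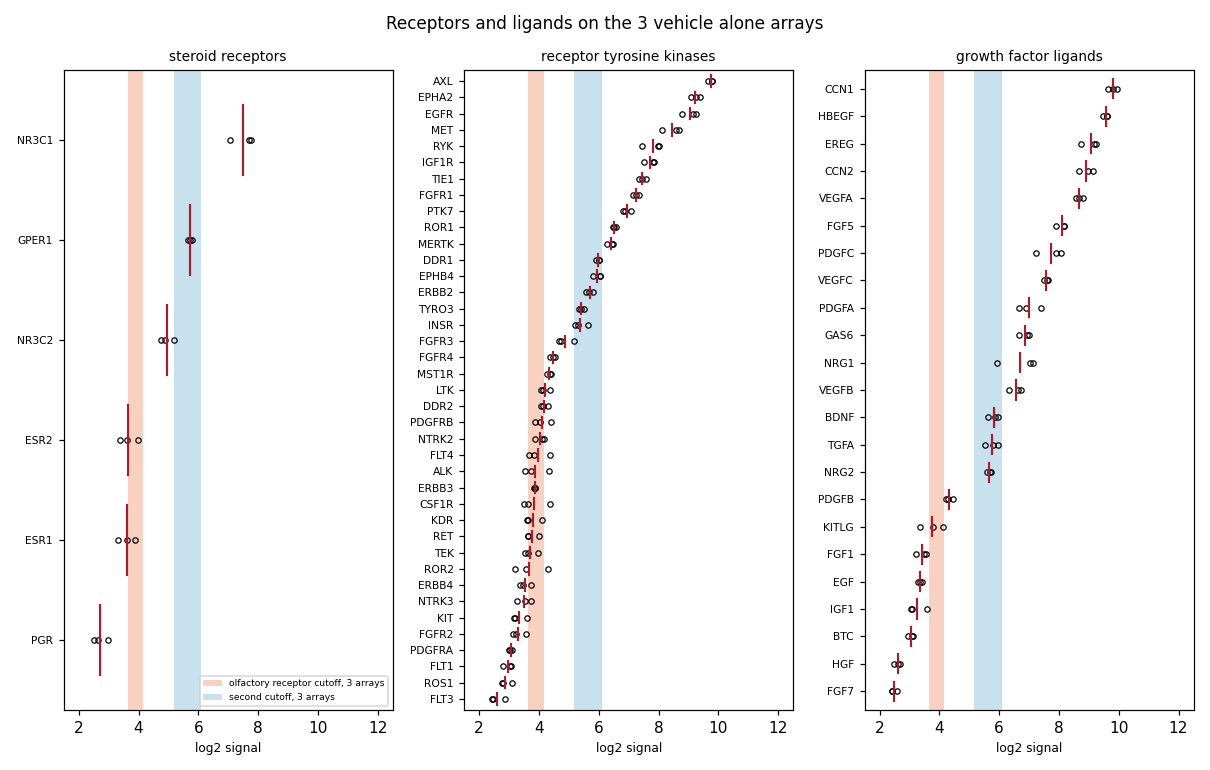
Log2 signal (x axis) of each steroid receptor, receptor tyrosine kinase and growth factor gene (y axis) on the 3 vehicle alone arrays (circles) with their mean (red bar), and the bands of the olfactory receptor and second cutoffs over the 3 arrays. AXL, EPHA2, EGFR and MET stand between 8.11 and 9.79, while ESR1, PGR and ERBB4 lie in or below the band of 3.64 to 4.17.

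Cytokine receptors were led by TNFRSF12A, the TWEAK receptor gene, at 9.36, 9.48 and 9.53. OSMR, the oncostatin M receptor gene, gave 8.77, 8.99 and 8.57, and IL6ST, the shared signalling subunit gene of the interleukin-6 family, gave 8.99, 8.77 and 8.28. The death receptor genes TNFRSF21 (7.81), TNFRSF10B (7.64) and TNFRSF1A (7.64) followed. In all 24 of 39 were above background and 11 above the second cutoff, near the 66.8% and 30.6% of all genes. IL1R1, the interleukin-1 receptor gene, gave 4.26, 3.63 and 3.47 and was mixed, as were FAS (4.39 on average), IFNAR2 (4.37), IL11RA (3.86), IL20RB (3.78) and IL2RB (3.70). The lowest were IL1RL1 (2.62), PRLR (2.64), the prolactin receptor gene, IL18R1 (2.83), CSF3R (3.14), IL13RA2 (3.18) and IL2RA (3.29).

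Receptors and signal transducers of TGF-beta and BMP had 18 of 20 genes above background and 8 above the second cutoff. The shares among all genes were 66.8% and 30.6%. TGFBR2 (9.22, 9.06 and 8.88) and TGFBR1 (8.14, 7.83 and 7.51), the receptor pair for TGF-beta, were both well above the cutoffs. The signal transducers SMAD3 (8.11), SMAD4 (7.80) and SMAD2 (7.28) and the co-receptor gene ENG (7.47) stood beside them. ACVRL1 (3.81), an endothelial receptor gene, was mixed and AMHR2 (3.60), the anti-Müllerian hormone receptor gene, was not above background.

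Chemokine receptors were the list with the lowest median among the receptor lists, 3.29. Of 18 genes 4 were above background and 0 above the second cutoff, against 66.8% and 30.6% of all genes. The 4 were CCR10 (4.97, 5.14 and 4.78), CXCR3 (4.47 on average), CCR7 (4.20) and XCR1 (3.99). CXCR4, the CXCL12 receptor gene often studied in metastasis, gave 3.95, 3.81 and 3.66, above the cutoff on 2 arrays by at most 0.31. CXCR5 (3.59) was mixed as well. ACKR3 (2.53), CCR1 (2.55), CXCR2 (2.64), CCR6 (2.68), CCR2 (2.73) and CXCR1 (2.74) were the lowest.

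Of 29 receptors for signalling lipids, proteases and hormones 18 were above background and 4 above the second cutoff. The shares among all genes were 66.8% and 30.6%. ADORA2B, an adenosine receptor gene, gave 7.78, 7.75 and 7.88, and LPAR1, a lysophosphatidic acid receptor gene, gave 7.60, 7.45 and 6.69. F2R, the thrombin receptor gene, averaged 6.73 and PTGER4, a receptor gene for prostaglandin E2, gave 6.12, 6.29 and 6.30. PTGER3 (2.95) and PTGFR (3.25), other prostaglandin receptor genes, and S1PR1 (2.88) were not above background. Neurotransmitter receptors, of interest in a cell that grows in brain, were above background in 14 of 30 and above the second cutoff in 2. The highest were GABRA3 (7.33, 7.11 and 6.70) and GABRE (6.46, 6.49 and 6.36), subunit genes of the GABA-A receptor, and CHRNA5 (6.95, 6.65 and 5.96), a nicotinic receptor subunit gene. The GABA-A subunit genes GABRB1 (2.47) and GABRA2 (2.53) and the glutamate receptor genes GRIA2 (2.64), GRIK1 (2.72), GRIA3 (2.83) and GRIN2B (2.86) were not above background.

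Mesenchymal genes typical of MDA-MB-231 were high in these cells, and some luminal genes were above background beside them. A list of 16 genes known to be high in MDA-MB-231 was above background in all 16, and 15 were in the top 25% of all genes, at 6.67 or more, with IL6 (6.31) the exception. Of 16 genes known to be low in that line 5 were not above background, 4 were mixed and 7 were above it, with 0 in the top 25%. The 7 included FOXA1 (6.55), EPCAM (5.85), ERBB2, CLDN4 (4.90), CLDN3 (4.73) and KRT14 (4.53), so for these genes the list's direction was only partly met. Both lists of line markers were chosen with earlier results of these data known, so their counts are not an independent check of the line. CD24 (4.68, 4.17 and 3.72), a surface glycoprotein gene used with CD44 to grade breast cancer cells, was mixed, and TFF1 (3.94) and KRT5 (3.70) were mixed as well.

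Mesenchymal genes had 27 of 34 members above background and 13 above the second cutoff, against 66.8% and 30.6% of all genes. VIM (chromosome 10), the vimentin gene, gave 10.81, 10.77 and 10.48 and ranked 30 of 17958, beside MSN, the moesin gene, at rank 29 (10.74 on average). CAV1, the caveolin gene, gave 10.82, 10.57 and 10.07, and CD44, the hyaluronan receptor gene, gave 9.86, 9.94 and 9.56. LOXL2 (9.22), a matrix crosslinking enzyme gene, and SNAI2 (8.99), which encodes the repressor SLUG, were also in the top 10%. ZEB1, a repressor gene of the epithelial state, gave 7.24, 7.27 and 7.12. Matrix genes differed widely. The proteoglycan genes LUM (2.00, 1.97 and 1.97) and DCN (2.41) were among the lowest signals and SPARC (3.70) was not above background. FN1 (8.46), COL6A1 (8.41) and LOX (7.90) were in the top 10%, and COL1A1 (5.17), COL1A2 (4.09) and COL3A1 (4.05) were above background, all named here after their values were seen. The fibroblast surface genes FAP (2.68) and THY1 (3.69) were not above background. CDH2, the N-cadherin gene, gave 3.62, 3.56 and 3.80 and was not above background, while TWIST2 (3.75, 3.71 and 4.54) was mixed.

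Luminal epithelial genes split into 2 kinds. The keratin genes KRT8 (10.04, 9.88 and 9.73), KRT18 (9.44, 9.25 and 9.53) and KRT19 (8.37, 8.25 and 8.27) were high, as were XBP1 (7.93), a regulator of secretory cells, MLPH (7.08, 7.19 and 7.32) and AGR2 (7.12, 6.90 and 6.20), both genes of luminal tumours. FOXA1, the pioneer factor of the luminal type, gave 6.59, 6.68 and 6.38 and CLDN7, a tight junction gene, gave 6.76, 6.76 and 6.45. Both passed the second cutoff on all 3 arrays, and CLDN7 is named here after its values were seen. EPCAM, the epithelial adhesion molecule gene, gave 5.98, 5.79 and 5.80. Other epithelial genes were not above background. CDH1 (probe set 7996837, chromosome 16), the E-cadherin gene, gave 3.29, 3.30 and 3.53, and ESRP1 (3.21), an epithelial splicing factor gene, GRHL2 (3.17), RAB25 (2.60) and ELF5 (3.71) were not above background either. The claudin genes CLDN4 (4.90) and CLDN3 (4.73) were above the olfactory receptor cutoff only. ESRP2 (3.82, 4.04 and 4.13), OVOL1 (3.91) and OVOL2 (3.82) were mixed. In all 19 of 28 luminal genes were above background and 8 above the second cutoff, near the shares of all genes.

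Basal and myoepithelial genes were above background in 12 of 16 and above the second cutoff in 4, near the 66.8% and 30.6% of all genes. ITGA6 (9.75, 9.67 and 9.12), LAMB3 (9.01 on average) and ITGB4 (6.46), genes of the hemidesmosome and its laminin, and SFN (8.72), the stratifin gene, were those 4. The basal keratin gene KRT5 gave 3.32, 3.58 and 4.22 and was mixed, as was TRIM29 (3.93), and the desmosome genes DSC3 (2.88) and DSG3 (2.96) were not above background.

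**Figure D4:**
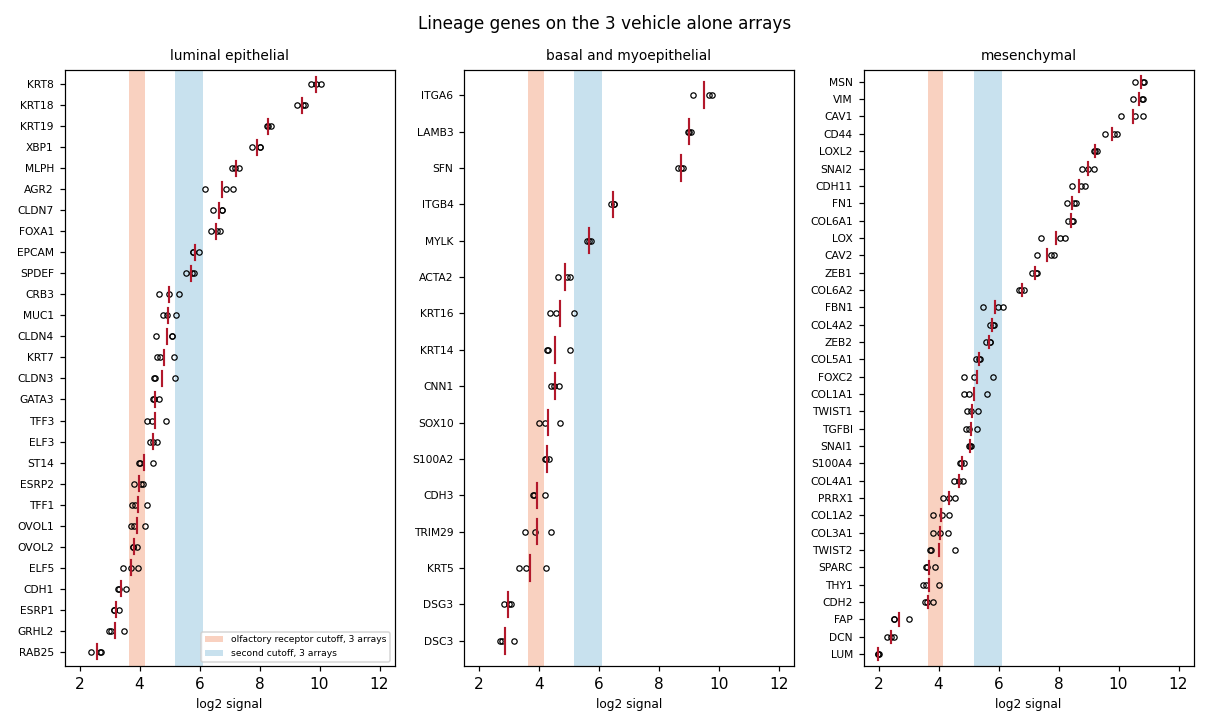
Log2 signal (x axis) of luminal epithelial, basal and myoepithelial, and mesenchymal genes (y axis) on the 3 vehicle alone arrays (circles) with their mean (red bar) and both cutoff bands. VIM, MSN and CAV1 reach 10 or more, KRT8 and KRT18 lie above 9, and CDH1, ESRP1, GRHL2 and RAB25 lie below the olfactory receptor band.

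Genes of other cell types were looked for because the cells were sorted and other groups had been in culture with astrocytes. The values here are those of vehicle alone, cultured without astrocytes, so they cannot show whether astrocyte RNA was carried into the co-cultured groups. The astrocyte genes AQP4 (2.89, 3.04 and 3.18), SLC1A2 (2.67) and S100B (3.06) were not above background in vehicle alone. GFAP, the astrocyte filament gene, gave 4.74, 4.83 and 5.49, above the olfactory receptor cutoff on 3 arrays and the second cutoff on none. Of 13 astrocyte markers 9 were above background and 3 above the second cutoff, led by SOX9 (7.36), GLUL (6.79) and SLC1A3 (6.49), which other cells also express. Of 12 microglia and macrophage markers 2 were above background, the lysosomal gene CD68 (8.44) and SPI1 (4.77), and AIF1 (2.43), PTPRC (2.49) and P2RY12 (2.62) were among the lowest. Of these 12, 1 exceeded the second cutoff on all arrays, CD68. Neuron markers were above background in 6 of 12, oligodendrocyte markers in 5 of 9, endothelial markers in 4 of 10 and blood cell markers in 3 of 11, against 66.8% of all genes. Above the second cutoff were 1 neuron, 1 oligodendrocyte, 2 endothelial and 0 blood cell markers, against 30.6% of all genes. These were ENO2, CNP (7.81), TIE1 (7.35, 7.43 and 7.57), an endothelial receptor gene, and ESAM (7.01), an endothelial adhesion gene, while VWF (3.17), ERG (3.16) and EMCN (2.24) were not above background.

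Proliferation genes were high almost throughout. All 23 S phase genes and all 22 genes of G2 and mitosis were above background, and 21 and 20 of them exceeded the second cutoff, with medians of 7.90 and 8.43 against 5.10 for all genes. TPX2 (9.46, 9.40 and 8.92) and TOP2A (9.44, 9.35 and 8.80), genes of the spindle and of DNA topoisomerase, and CDC6 (9.03, 9.21 and 8.58), a replication licensing gene, led their lists. HMMR (5.36, 5.13 and 4.17) was the lowest of the G2 and mitosis genes and differed most between replicate 3 and the others. Among cyclins and cyclin-dependent kinase genes CDK4 (9.79, 9.48 and 9.02) and CCND1 (9.34, 9.35 and 9.20), the cyclin D1 gene, were highest. CDKN2A, which encodes the CDK4 inhibitor p16 and is known to be deleted in MDA-MB-231, gave 3.37, 3.78 and 4.02 and was the only 1 of 20 not above background. MYC (9.43, 9.26 and 8.96) and YAP1 (9.12, 9.03 and 9.28) led the oncogenes and tumour suppressors, while MYCN (3.88) was mixed. Of these 22 genes 20 were above background and 14 above the second cutoff, against 66.8% and 30.6% of all genes.

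Genes of central carbon metabolism were mostly above background. Of 25 glycolysis and lactate genes 21 were above background and 16 above the second cutoff, against 66.8% and 30.6% of all genes, with GAPDH (11.87, 11.52 and 11.30), ENO1 (11.06 on average), LDHA (10.94), PKM (10.46), LDHB (10.44) and the glucose transporter gene SLC2A1 (10.27, 10.24 and 10.08) highest. The liver glucose transporter gene SLC2A2 (2.76), the testis isoform LDHC (2.47) and the hexokinase gene HK3 (3.56) were not above background, and the muscle enolase gene ENO3 (4.41) was mixed. Other isoforms known from single tissues were above background, among them the muscle genes PGAM2 (5.39) and SLC2A4 (4.61), the liver gene PKLR (4.09), the brain gene ALDOC (6.28) and the neuronal enolase gene ENO2 (7.13), of which PGAM2 is named here after its values were seen. All 20 citric acid cycle genes were above background and 19 above the second cutoff, with IDH2 (6.50, 6.36 and 6.04) the exception and MDH2 (9.38) the highest. The liver genes of glucose release, PCK1 (3.69) and G6PC1 (2.96), were not above background, while PYGB (9.26) and PYGL (8.39), which break down glycogen, were high. In the pentose phosphate pathway PGD (10.28) and TKT (9.36) were highest and TKTL1 (3.18) was not above background.

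Lipid synthesis genes were above background throughout, and most but not all were above the second cutoff. The shares among all genes were 66.8% and 30.6%. All 15 fatty acid synthesis genes and all 11 cholesterol synthesis genes were above background, with medians of 8.54 and 8.06, and 12 and 10 exceeded the second cutoff. ACLY (10.28, 10.21 and 10.10), which makes cytosolic acetyl-CoA, SCD (10.30, 10.12 and 10.11), the stearoyl-CoA desaturase gene, FADS2 (9.89), FADS1 (9.66) and FASN (9.57) led fatty acid synthesis, and DHCR7 (9.24) and HMGCS1 (9.03) led cholesterol synthesis. THRSP (3.97), a lipogenic gene of liver and fat, was the lowest of both lists. In serine and one-carbon metabolism 11 of 12 genes were above background and 8 above the second cutoff. PHGDH, which commits glucose carbon to serine, gave 7.89, 7.64 and 7.39, SHMT2 averaged 9.36, and GLDC (3.88, 3.79 and 4.43) was mixed. Amino acid transporters were high, among them SLC38A2 (10.32, 10.17 and 9.59), SLC3A2 (9.81) and SLC7A5 (9.53), while SLC6A14 (2.44) and the arginase gene ARG1 (2.33) were not above background. Among 25 iron and antioxidant genes 20 were above background and 15 above the second cutoff, with MT2A (11.49), GPX4 (10.23, 10.27 and 10.04), which protects membranes from lipid peroxides, and FTL (9.96) highest, and the iron exporter gene SLC40A1 (3.33) and TF (2.60), the transferrin gene, not above background.

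**Figure D5:**
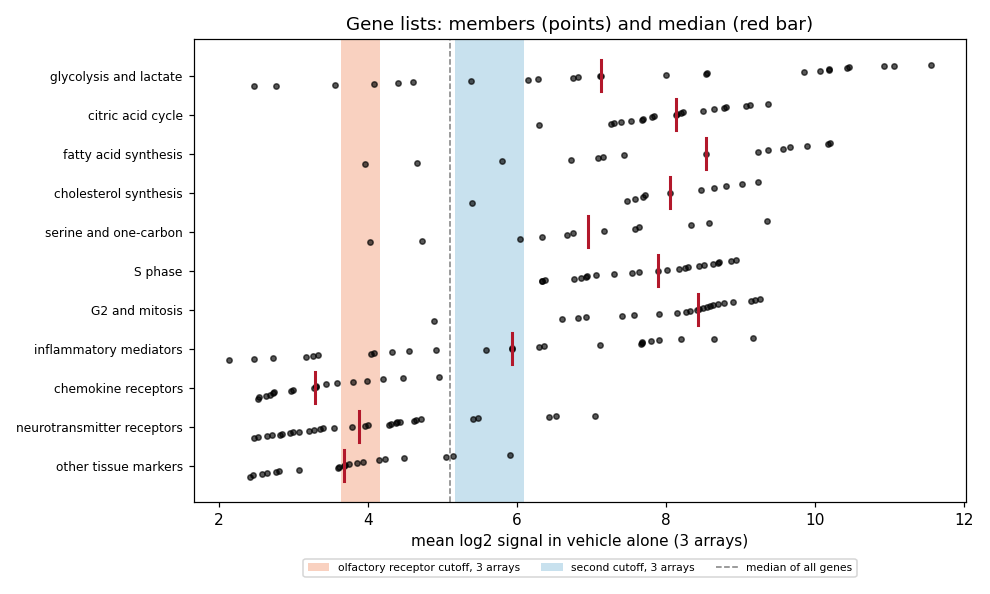
Mean log2 signal in vehicle alone (x axis) of each measured member (points) of 11 gene lists (y axis), with the list's median (red bar), both cutoff bands and the median of all genes, 5.10 (dashed line). Citric acid cycle, lipid synthesis and cell cycle genes lie mostly above the second band, while the medians of chemokine receptors (3.29), neurotransmitter receptors (3.88) and other tissue markers (3.69) lie below the second band.

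Of 25 inflammatory mediators 18 were above background and 10 above the second cutoff, near the 66.8% and 30.6% of all genes, with a median of 5.93. NFKBIA (9.20, 9.37 and 8.94), the feedback inhibitor gene of NF-kB, CXCL8 (8.45, 8.73 and 8.75), a neutrophil chemokine gene, IL1B (8.11, 8.14 and 8.35) and CSF3 (7.81, 7.81 and 8.12) led them. CSF1 (7.80), ICAM1 (7.69) and IL11 (7.84, 7.82 and 7.36) were also in the top 25%. Of the receptor genes for these ligands, CXCR1 and CXCR2 for CXCL8 and CSF3R for CSF3 were not above background, and CSF1R for CSF1, IL1R1 for IL1B and IL11RA for IL11 were mixed. Other receptor genes were above background, among them IL6ST, the shared subunit gene that serves IL6 and IL11, IL6R (4.72) for IL6, LIFR (5.83) for LIF (6.37), IL1RAP (5.12) for IL1B and TNFRSF1A (7.64) for TNF (4.08), of which IL6R, LIFR, LIF, IL1RAP and TNF are named here after their values were seen. The interferon-induced chemokine gene CXCL10 (1.99, 2.24 and 2.17) and CCL5 (2.48) were among the lowest, and VCAM1 (2.73), CCL20 (3.16), PTGS1 (3.27) and CXCL6 (3.33) were not above background.

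Invasion and adhesion genes included some of the strongest signals. The counts in this paragraph stand against 66.8% of all genes above background and 30.6% above the second cutoff. MMP1, the interstitial collagenase gene, gave 10.92, 10.69 and 10.41 and ranked 32 of 17958. MMP12 (2.08), MMP8 (2.34), MMP7 (2.92), MMP10 (3.10) and MMP13 (3.42) were not above background, and MMP2 (3.66, 3.58 and 3.86) was mixed. PLAT (9.51), the tissue plasminogen activator gene, PLAU (8.93), its urokinase counterpart, and the inhibitor genes TIMP3 (9.45) and TIMP1 (8.94) were in the top 10%, and 18 of 26 proteases and inhibitors were above background and 14 above the second cutoff. Of 23 integrin genes 12 were above background and 9 above the second cutoff, led by ITGA6, ITGA2 (9.41, 9.46 and 8.93) and ITGA3 (9.24), and ITGA8 (2.38) and ITGB6 (3.07) were lowest. Among 18 genes linked to brain colonization 16 were above background and 9 above the second cutoff, including MMP1, HBEGF and EREG, while SERPINI1 (4.12, 3.67 and 3.36), the neuroserpin gene, and CTSS (3.89, 3.66 and 3.26), the cathepsin S gene, were mixed. Antigen presentation genes were above background in 14 of 15 and above the second cutoff in 9, led by HLA-B (9.37), and PDCD1LG2 (4.81, 4.42 and 4.14) was mixed. In the BCL2 family MCL1 (9.03, 8.97 and 8.44) and BCL2L1 (8.87, 8.76 and 8.75), which protect from cell death, were highest, and 15 of 16 genes were above background and 9 above the second cutoff. The death-promoting genes PMAIP1 (8.25), BID (7.32) and BAX (7.21) followed, BCL2L11 (4.61, 4.53 and 4.01), also death-promoting, was mixed, and the protective genes BCL2 (5.24), BCL2L2 (5.11) and BCL2A1 (4.81) were above background. ABCB1 (3.13, 3.15 and 2.93), the P-glycoprotein gene, was not above background.

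The share of protein-coding genes above background, leaving out olfactory receptors, differed between chromosomes. It was highest on chromosome 16 (82.3%, 550 of 668) and chromosome 22 (80.9%). The lowest shares were on chromosome X (56.5%, 362 of 641) and chromosome 4 (61.1%). No test was run between chromosomes, and the base content of the probes was not examined. Among other gene classes 163 of 526 long noncoding RNA genes, 43 of 180 microRNA genes and 87 of 188 small nucleolar RNA genes were above background, against 69.3% of protein-coding genes.

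The profile was then set against the other groups. The profile in estradiol alone was close to that in vehicle alone. Each estradiol alone array correlated with the mean of vehicle alone at r of 0.994 to 0.997, and 93 of the 100 highest genes were shared. Of 11996 genes above background in vehicle alone 98.2% were also above it in estradiol alone. In limma, a linear model over all 12 arrays with moderated variances, 0 of 17958 genes (0%) passed an adjusted p of 0.05, and 1 had an unadjusted p below it. With the arrays of these groups alone, 37 genes had an unadjusted p below it, and 0 passed after adjustment. The spread shared over 12 arrays includes estradiol with astrocytes replicate 2, which correlated with the mean of vehicle alone at r = 0.606. With no change in any gene, a share of about 0.05 of unadjusted p-values would on average fall below 0.05. Both fits gave far fewer, so these p-values may run too high. A count of 0 therefore does not show that estradiol changed no gene. The list members with the smallest p were IL11, CTSS, CCR7, GAPDH and CD24, each with an adjusted p of 1 in limma, and IL11 differed most, at 8.06 in estradiol alone and 7.67 in vehicle alone on average. ESR1 averaged 3.45 ± 0.17 in estradiol alone and 3.61 ± 0.29 in vehicle alone, and GPER1 averaged 5.68 ± 0.14 in estradiol alone and 5.73 ± 0.06 in vehicle alone (SD, n = 3 each). PGR averaged 2.70 in estradiol alone and 2.72 in vehicle alone, at background in both.

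The arrays of cells cultured with astrocytes had narrower ranges of signal. The SD over genes was 1.26 to 1.85 in estradiol with astrocytes, 1.49 to 1.79 in vehicle with astrocytes and 1.77 to 2.02 in vehicle alone, and the highest olfactory receptor cutoff was 5.62 in estradiol with astrocytes, 4.75 in vehicle with astrocytes and 4.17 in vehicle alone. The number of genes above background was 5451 in estradiol with astrocytes and 9799 in vehicle with astrocytes, against 11996 in vehicle alone, and the part of the narrower ranges in this was not tested. Of all 11996 genes above background in vehicle alone, 43.9% were above it in estradiol with astrocytes and 79.8% in vehicle with astrocytes. Of the 547 list members among them, 296 were above it in estradiol with astrocytes and 466 in vehicle with astrocytes. In each astrocyte group 6 of these members were above it on no array, against 154 and 203 of all those genes. Of all 4442 genes not above background in vehicle alone, 36 were above it in estradiol with astrocytes and 38 in vehicle with astrocytes. Of the 162 list members among them 1 was above it in each astrocyte group, CDKN2A. It gave 4.53, 5.97 and 4.80 in estradiol with astrocytes and 4.63, 4.99 and 5.39 in vehicle with astrocytes, against 3.37, 3.78 and 4.02 in vehicle alone. The CDKN2A difference between vehicle with astrocytes and vehicle alone, 1.28 (SE 0.38), did not pass in limma (adjusted p = 0.0965).

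In limma 10 of 17958 genes (0.0557%) passed between vehicle with astrocytes and vehicle alone, of which 3 (0.0167%) were higher in the co-cultured cells and 7 (0.039%) were lower, while 5070 genes reached an unadjusted p below 0.05. The list members among them were 2 of the inflammatory mediators. PTGS2, the gene of the prostaglandin-forming enzyme COX-2, gave 5.33, 5.16 and 4.66 in vehicle with astrocytes, against 7.75, 7.76 and 7.54 in vehicle alone. The difference was −2.64 (SE 0.23, adjusted p = 0.00204 in limma). IL6 gave 4.36, 4.21 and 4.05 in vehicle with astrocytes, against 6.31, 6.50 and 6.10 in vehicle alone. The IL6 difference was −2.10 (SE 0.21, adjusted p = 0.00338 in limma). Both passed under every alternative tried, with an adjusted p of at most 0.0495. The count of genes was not stable. It was 1117, 6094 and 3 without replicates 1, 2 and 3 of estradiol with astrocytes, 1630, 2 and 2 without those of vehicle with astrocytes, 3, 2 and 2 without those of estradiol alone, and 2, 2 and 28 without those of vehicle alone. EGFR averaged 7.96 ± 0.65 in vehicle with astrocytes and 9.06 ± 0.24 in vehicle alone (SD, n = 3 each), which did not pass in limma (difference −1.09, SE 0.44, adjusted p = 0.146). VIM averaged 10.33 in vehicle with astrocytes and 10.68 in vehicle alone, KRT18 averaged 9.76 in vehicle with astrocytes and 9.41 in vehicle alone, and neither passed in limma (adjusted p = 0.312 and 0.521).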

How the data were processed

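The authors deposited log2 values per probe set from biotin-labelled Affymetrix arrays. RMA and Partek stand in the submitters' processing notes, with no version, role or order. An array has no depth, and the precision is limited by having 3 arrays per group. The submitters' probe annotation named genes for 21236 of 33297 probe sets, 19181 with 1 symbol and 2055 with several, and 12061 were not in it. Probe sets with 1 symbol gave 17958 genes, of which 17933 had a current RefSeq symbol, and 895 had several probe sets. Low signals were not filtered out.

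The background call, the 95th percentile of silent genes on each array, and the limma 3.58.1 fit in R 4.3.3 (lmFit on 4 group means over 12 arrays, contrasts.fit, eBayes, two-sided, Benjamini and Hochberg adjustment over all genes, threshold 0.05) were both tested on simulated data. In the simulated data most differences of 2 log2 units were found by either step, and most of 1 log2 unit were missed. For the limma fit, the simulated noise was drawn separately for each array, with the same spread per gene in all groups. The real arrays differed in range between groups, so the simulated outcome may not hold for them. Samples were grouped by the labels. The members and the 44 gene lists (768 of 875 members measured, 107 not analysed here) were chosen with earlier results of these data known. Genes named are, per list described, up to 6 highest, 6 lowest and all mixed members, the 20 highest of all genes, the 10 most variable, members called in a comparison or the 5 with the smallest p, and 21 fixed genes. Other genes are said to have been chosen after their values were seen. Promoters are RefSeq's, GRCh38.p14. Alternatives were other percentiles and silent genes, other choices of probe set, quantile normalization, median centring, a filter on background, eBayes with trend and robust options, the replicate number as a block, the arrays of the compared groups only, the array SD as a covariate, and each array left out. Leaving out both arrays numbered 2 with astrocytes was chosen after seeing the data.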

Additional observations from a re-analysis of the deposited data

Results flagged for a closer look

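Signal also appeared outside the genes named. Of 12061 probe sets that the probe table does not list, and which are unnamed here, 4173 (34.6%) were above the olfactory receptor cutoff on all 3 vehicle alone arrays and 1950 (16.2%) above the second cutoff, with a median log2 signal of 3.42. Among probe sets with 1 symbol 66.5% were above background. What these probe sets measure was not tested.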

How the results depend on the processing

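The number of genes above background was 11996. It was 5504 with taste receptor, beta-defensin and keratin-associated protein genes as the silent set, which is the second cutoff of the report, and under that set 26 of 44 lists changed their count by more than 1.5 times. Under the other alternatives it lay between 9841 (99th percentile) and 13026 (90th percentile), and between 12080 and 12751 with 1 vehicle alone array left out. Rescaling each array by quantile normalization keeps the order of genes on an array, so it cannot move this call. The estradiol alone comparison gave 0 genes under every alternative.

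For vehicle with astrocytes against vehicle alone the count of 10 became 2581 with the replicate number as a block, 1466 with the arrays of the compared groups only, 987 with the array SD as a covariate, 4 with each array centred on its median and 933 without both arrays numbered 2 with astrocytes. Leaving out 1 array gave 2 to 6094 genes. The cause was not tested. Same-number arrays deviated from their group means with r = 0.721, −0.495 and −0.042 between estradiol alone and vehicle alone. The values were 0.582, −0.436 and 0.065 between vehicle with astrocytes and vehicle alone. Not every array correlated best with its own number. Deviations from a mean of 3 arrays depend on one another, so these values cannot settle whether the numbers pair the samples, and the labels do not say. The block gave 0 genes for estradiol alone. The spread of 3 arrays, and the different binding of probes, limit how finely levels can be read.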
